A study of Mus musculus with 4 samples.

Results

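The claudins Cldn1, Cldn2, Cldn3, Cldn4, Cldn5, Cldn7, Cldn10 and Cldn12, the strand protein occludin (Ocln) and the scaffold protein ZO-1 (Tjp1) were followed through inflamed mouse pancreas. These 10 genes were chosen by name from the 32285 features counted, and all 10 had UMIs in every section, so none was dropped. Cldn18, a claudin of the stomach and lung, was not in the group or in any list used here. Pancreas sections came from 4 mice, 2 labelled Ehmt2 +/+ and 2 labelled Ehmt2 fl/fl, one section per mouse. All mice were C57Bl/6 and carried Pdx1-Cre, which drives recombination in cells that descend from the early pancreatic epithelium, so acinar, duct and islet cells can carry the deletion while stroma, vessels and leukocytes do not. Per the study's methods the mice were 4 weeks old. All received caerulein, a secretagogue that causes acute pancreatitis, at 50 μg/kg in 8 hourly injections after a fast of 12 h, and were killed 18 h after the first dose. No saline-treated section was analysed here, so the comparison is between genotypes within pancreatitis.

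Tight junctions seal the space between neighbouring epithelial or endothelial cells. Claudins form the strands of the junction, and which claudins a cell makes sets whether ions, water or larger molecules can pass. Occludin joins these strands, and ZO-1 ties them to the actin skeleton. In the exocrine pancreas the junctions of acinar and duct cells keep secreted enzymes in the lumen, and acute pancreatitis is known to loosen them.

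The sections were measured by CytAssist Visium, in which probe pairs bound to RNA in fixed tissue are transferred onto a grid of barcoded spots. A random tag, the unique molecular identifier (UMI), lets each molecule be counted a single time. A spot can hold several cells of different types. Spots with at least 500 UMIs were used, which left 6144 and 7871 spots in the Ehmt2 +/+ sections and 6483 and 6462 in the Ehmt2 fl/fl sections. Replicate 1 of Ehmt2 +/+ was far deeper than the rest, with 43784930 UMIs and a median of 6328 per spot, against 6643747 to 7938386 UMIs and medians of 874 to 1113 in the other 3 sections. Digestive enzyme transcripts made up 65.1% and 54.4% of UMIs in the Ehmt2 +/+ sections but 22.8% and 22.1% in the Ehmt2 fl/fl sections. Each other marker list, summed, took a larger share of the UMIs in both Ehmt2 fl/fl sections, except the islet list, which overlapped. These were the duct, endothelium, fibroblast, smooth muscle, macrophage, lymphoid, fat, mesothelium and intestinal epithelium lists. Fibroblast markers, for example, stood at 416 and 540 UMIs per 1000000 UMIs of the section (CPM) in Ehmt2 +/+ and at 2002 and 1899 CPM in Ehmt2 fl/fl. Most genes had this order: 91.4% of the 20222 genes with at least 10 UMIs in all were higher in both Ehmt2 fl/fl sections. The median of these genes differed by 1.68 on the log2 scale. The part of these shifts in the results below was not tested. In such sections fewer cells of a type cannot be told apart from less RNA per cell.

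Several checks bear on the labels and on the lowest values. Ehmt2 itself had 865 and 31 UMIs in the Ehmt2 +/+ sections and 67 and 96 in the Ehmt2 fl/fl sections. Whether its probes lie in the deleted part is not given in the sources used here. The Y-linked gene Uty had 0 and 0 UMIs in Ehmt2 +/+ and 73 and 111 in Ehmt2 fl/fl, so genotype and sex cannot be told apart. Olfactory receptor genes, which the pancreas is not known to use, served as the background: their median over 1135 genes was 0.251 and 4.97 CPM in Ehmt2 +/+ and 8.13 and 12.6 CPM in Ehmt2 fl/fl. The deep Ehmt2 +/+ section thus had a far lower background than any of the other 3 sections. In Ehmt2 +/+ replicate 2, 72.1% of olfactory receptor genes had as many UMIs as Ehmt2 or more. In Ehmt2 fl/fl replicates 1 and 2 these shares were 34.4% and 53.7%. Ehmt2 thus lay within the background in those 3 sections and did not check the genotype. Each of 2 slides held 1 section of each genotype (both replicates 1 on one slide, both replicates 2 on the other), always in the same capture area for a given genotype, so that area and genotype cannot be told apart.

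Cldn3, Cldn4 and Cldn7, epithelial claudins that tighten the junction in many glands, were the members whose counts exceeded every olfactory receptor gene in all 4 sections. Cldn3 and Cldn4 are neighbours on chromosome 5 (GRCm38, GENCODE M21), Cldn3 at chr5:134986214-134987472 on the plus strand and Cldn4 at chr5:134945119-134946934 on the minus strand, 39279 bases apart and read away from each other. Cldn7 lies at chr11:69964779-69967885 on the plus strand. Because Ehmt2 methylates histones at promoters, the 250 bases before the start of these 3 genes are shown, from RefSeq on GRCm38.p6, each read 5′ to 3′ on the strand of its gene. Capitals mark the motifs searched for on both strands, namely the E-box CACCTG read by repressors of epithelial genes, the GC box GGGCGG, the TATA box TATAAA, and AACCNGTT, the site of the grainyhead-like factors of epithelia.
Cldn3, chr5:134985964-134986213, plus strand: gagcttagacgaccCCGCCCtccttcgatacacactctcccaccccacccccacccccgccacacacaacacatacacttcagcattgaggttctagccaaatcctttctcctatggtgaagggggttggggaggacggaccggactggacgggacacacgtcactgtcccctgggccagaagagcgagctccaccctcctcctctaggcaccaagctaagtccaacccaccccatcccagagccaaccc
Cldn4, chr5:134946935-134947184, minus strand: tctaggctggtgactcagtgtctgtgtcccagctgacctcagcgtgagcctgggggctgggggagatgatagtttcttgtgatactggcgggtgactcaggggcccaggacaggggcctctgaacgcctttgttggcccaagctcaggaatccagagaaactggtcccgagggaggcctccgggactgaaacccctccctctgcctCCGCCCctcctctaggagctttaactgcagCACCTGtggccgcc
Cldn7, chr11:69964529-69964778, plus strand: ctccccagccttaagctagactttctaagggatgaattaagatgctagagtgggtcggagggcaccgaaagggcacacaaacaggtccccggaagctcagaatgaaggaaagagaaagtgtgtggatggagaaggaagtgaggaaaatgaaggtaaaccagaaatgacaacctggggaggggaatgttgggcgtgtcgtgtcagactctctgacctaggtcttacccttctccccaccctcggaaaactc

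The Cldn3 window held 1 GC box and the Cldn4 window 1 GC box and 1 E-box, close to the gene's start, while the Cldn7 window held none of the 4 motifs. Of 32851 RefSeq promoter windows of this length, 32.7% held a GC box, 17.2% the E-box, 12.4% TATAAA and 1.79% AACCNGTT. The 3 windows carried 9, 7 and 6 CpG dinucleotides, against a median of 6 over all windows, and 60.8%, 62.0% and 51.2% of their bases were G or C, against a median of 52.4%. Among the other members only the Cldn2 window held TATAAA and only the Cldn5 window AACCNGTT. A match of letters is not evidence of a bound site.

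Cldn3 gave 14952 and 4968 UMIs in the Ehmt2 +/+ sections and 7168 and 6215 in the Ehmt2 fl/fl sections. As a level this was 341 and 633 CPM in Ehmt2 +/+ and 1079 and 783 CPM in Ehmt2 fl/fl. Both Ehmt2 fl/fl values lay above both Ehmt2 +/+ values, while the 2 Ehmt2 +/+ sections differed by more than the gap between the genotypes. Cldn3 provided between 56.4% and 68.0% of all UMIs of the 10 genes in every section. How many UMIs one transcript yields depends on its probes, so this is a share of counts and not of transcripts.

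Cldn4, which with Cldn3 is known as a receptor of the Clostridium perfringens enterotoxin, stood at 60.7 and 59.5 CPM in Ehmt2 +/+ and at 209 and 113 CPM in Ehmt2 fl/fl. The Ehmt2 +/+ sections were close to each other, and the Ehmt2 fl/fl sections differed by more than the gap between the genotypes. Cldn7, which lies along the lateral membrane and binds Epcam, stood at 142 and 155 CPM in Ehmt2 +/+ and at 218 and 198 CPM in Ehmt2 fl/fl. Cldn1, a claudin that seals the skin barrier, had only 27 and 85 UMIs in Ehmt2 +/+ and 110 and 230 in Ehmt2 fl/fl. Its level was between 2.04 and 2.45 times the olfactory median of its own section, so that its CPM moved with the background from section to section.

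The pore-forming members are Cldn2, a channel for cations and water, and Cldn10, a claudin whose isoforms pass cations or anions. Cldn2 (X chromosome) stood at 1.80 and 10.8 CPM in Ehmt2 +/+ and at 39.6 and 35.6 CPM in Ehmt2 fl/fl. With the section's olfactory median taken away, this left 1.55 and 5.86 CPM in Ehmt2 +/+ against 31.5 and 23.1 CPM in Ehmt2 fl/fl. Cldn2 was higher in both Ehmt2 fl/fl sections on each of the CPM scales used here, as was Cldn5. As multiples of the section's olfactory median, however, the genotypes overlapped for both. Cldn2 stood at 7.18 and 2.18 times that median in Ehmt2 +/+ and at 4.87 and 2.83 times in Ehmt2 fl/fl. The multiples of Cldn5 were 7.09 and 2.05 in Ehmt2 +/+ and 2.93 and 1.97 in Ehmt2 fl/fl. Cldn10 ran the other way in the deepest section: it had 1438 UMIs, 32.8 CPM, in Ehmt2 +/+ replicate 1, and 14.4 CPM in Ehmt2 +/+ replicate 2, 14.5 CPM in Ehmt2 fl/fl replicate 1 and 21.4 CPM in Ehmt2 fl/fl replicate 2. In the 3 shallow sections those Cldn10 levels were 1.70 to 2.90 times the olfactory median, against 131 times in the deepest, so 1 library set it apart.

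Cldn5, the main claudin of endothelium, stood at 1.78 and 10.2 CPM in Ehmt2 +/+ and at 23.8 and 24.8 CPM in Ehmt2 fl/fl. Cldn12, a claudin that lacks the tail by which most claudins bind ZO-1, stood at 6.49 and 12.7 CPM in Ehmt2 +/+ and 22.7 and 21.4 CPM in Ehmt2 fl/fl. Ocln stood at 3.68 and 8.41 CPM in Ehmt2 +/+ and at 13.4 and 15.9 CPM in Ehmt2 fl/fl. In Ehmt2 fl/fl replicate 2, 26.4% of olfactory receptor genes had as many UMIs as Ocln or more, so in that section Ocln could not be separated from the background. The share was 13.5% in Ehmt2 fl/fl replicate 1 and 7.75% in Ehmt2 +/+ replicate 2, so Ocln was near the background there too. Tjp1 stood at 13.9 and 17.0 CPM in Ehmt2 +/+ and at 27.2 and 29.6 CPM in Ehmt2 fl/fl, with at most 0.705% of olfactory receptor genes at or above it.

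**Figure D1:**
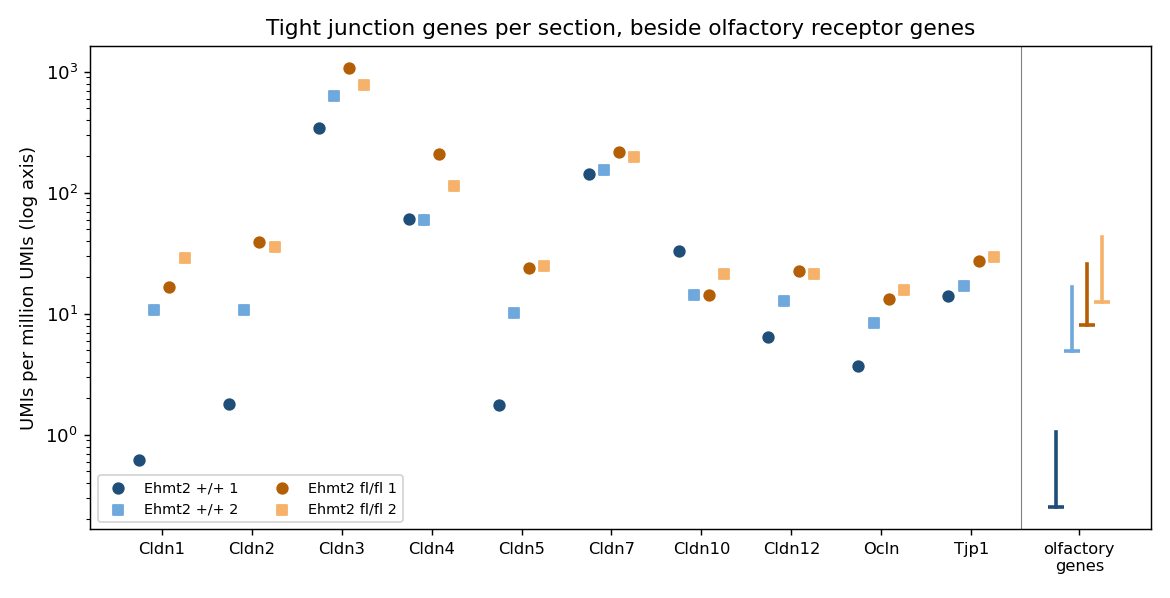
CPM (log axis) of the 10 genes in each section (blue, Ehmt2 +/+; orange, Ehmt2 fl/fl), with, at the right, the median (bar) and the maximum (top of line) of the olfactory receptor genes. Cldn3, Cldn4 and Cldn7 lie above the olfactory genes of every section, while the other members approach them in the 3 shallow sections.

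In all, 9 of the 10 members had a higher CPM in both Ehmt2 fl/fl sections than in both Ehmt2 +/+ sections, Cldn10 being the one whose genotypes overlapped. This order was general: 91.4% of the 20222 genes with at least 10 UMIs in all had it too, and the median gene differed by 1.68 on the log2 scale. The two-sided exact permutation test gave p = 0.333 for each of the 9, the smallest that 2 sections against 2 can give. Counted against UMIs of genes other than digestive enzymes, 2 members were higher in both Ehmt2 fl/fl sections (Cldn2 and Cldn5), 2 were lower in both (Cldn7 and Cldn10) and 6 overlapped. On that scale Cldn3 stood at 979 and 1390 CPM in Ehmt2 +/+ and at 1397 and 1004 CPM in Ehmt2 fl/fl, and 45.7% of all genes were higher in both Ehmt2 fl/fl sections and 6.84% lower in both. Cldn7 on the same scale stood at 409 and 339 CPM in Ehmt2 +/+ and at 282 and 255 CPM in Ehmt2 fl/fl.

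Members can also be counted within each section against Epcam, a surface protein of the same epithelial cells that stabilizes claudins. Epcam itself stood at 455 and 759 CPM in Ehmt2 +/+ and at 1448 and 1211 CPM in Ehmt2 fl/fl. Outside digestive enzymes it stood at 1305 and 1667 against 1875 and 1554 CPM, which overlap. Less of a member per Epcam UMI thus cannot be told apart from more Epcam. Against 100 Epcam UMIs there were 31.3 and 20.4 Cldn7 UMIs in the Ehmt2 +/+ sections and 15.1 and 16.4 in the Ehmt2 fl/fl sections. The mean was 25.8 ± 7.74 (SD, n = 2) in Ehmt2 +/+ and 15.7 ± 0.933 (SD, n = 2) in Ehmt2 fl/fl, and the 2 groups did not overlap (exact permutation p = 0.333). Cldn3 had 75.1 and 83.4 in Ehmt2 +/+ and 74.5 and 64.7 in Ehmt2 fl/fl per 100 Epcam UMIs, lower in both Ehmt2 fl/fl sections although the nearest sections differed little. Cldn10 was also lower in both, with 7.22 and 1.90 in Ehmt2 +/+ and 0.998 and 1.77 in Ehmt2 fl/fl. In total, 3 members were lower in both Ehmt2 fl/fl sections, 2 higher in both (Cldn2 and Cldn5) and 5 overlapped. Cldn4 overlapped, with 13.3 and 7.84 in Ehmt2 +/+ and 14.4 and 9.36 in Ehmt2 fl/fl. Cldn2 stood at 0.397 and 1.43 in Ehmt2 +/+ and at 2.73 and 2.94 in Ehmt2 fl/fl. Against Epcam 29.4% of all genes were higher in both Ehmt2 fl/fl sections and 7.90% lower in both. This scale was chosen after the values were seen.

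**Figure D2:**
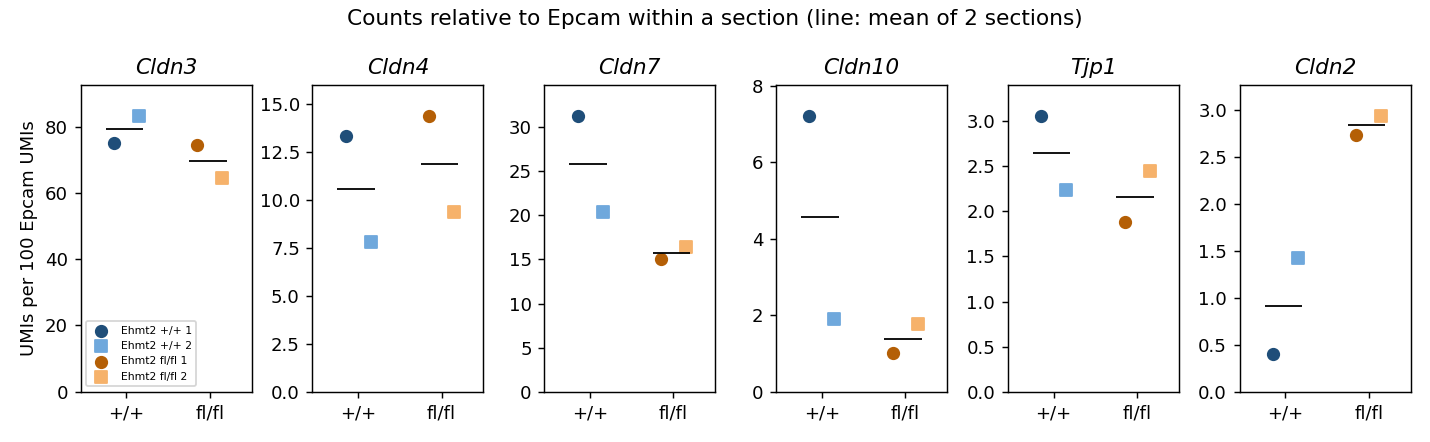
UMIs of 6 members per 100 Epcam UMIs of the same section, each axis from 0, with points for sections and a line for the mean of 2 sections. Cldn3, Cldn7 and Cldn10 are lower in both Ehmt2 fl/fl sections than in both Ehmt2 +/+ sections, Cldn2 is higher in both, and Cldn4 and Tjp1 overlap.

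In edgeR's quasi-likelihood test on counts summed per section (TMM normalization, Benjamini-Hochberg adjustment), 0 of the 10 members passed an adjusted p of 0.05, all 10 having passed the filter on low counts. Of all 20053 genes tested, 22 passed (0.11%), 11 higher and 11 lower in Ehmt2 fl/fl, and 10 of the 11 higher ones lie on the Y chromosome. At an unadjusted p under 0.05 there was 1 member and 1059 genes in all. DESeq2 gave an adjusted p to 3 members, Cldn3, Cldn4 and Cldn7, and called none of them. The member with an unadjusted p under 0.05 was Cldn10, with a log2 fold change of -2.80 ± 0.91 (SE) and an edgeR adjusted p of 0.364. The median member had a log2 fold change of -0.63, against 0.25 for all genes tested and 0.81 for the olfactory receptor genes, and 3 members (Cldn1, Cldn2 and Cldn5) were above 0.

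The scaling decided the sign of most of these differences. TMM gave the sections factors of 0.288, 0.957, 1.71 and 2.13. With library sizes alone 9 of 10 members had a positive log2 fold change and the median gene stood at 1.69. With TMM factors taken from the 3244 genes above every olfactory receptor gene in each section, a choice made after seeing the data, 6 of 10 were positive and the median gene stood at 0.69. Under each of these 3 scalings the same 3 members lay above the median of all genes, Cldn1, Cldn2 and Cldn5, and the other 7 below it. The 3 fits share their counts, and a change of scaling moves all genes and their median nearly alike. This agreement was thus close to fixed in advance and is no separate support. The median olfactory receptor gene lay above the median of all genes as well, at 0.81, 1.04 and 2.005 under TMM over all genes, TMM over genes above the background and library sizes alone. Cldn1, at 0.81, 1.05 and 2.01, and Cldn5, at 0.61, 1.03 and 2.04, lay close to or below that background. Cldn2, at 1.19 ± 0.68 (SE), 1.59 ± 0.72 and 2.60 ± 0.85, lay above it, each time by less than its SE. The edgeR adjusted p of Cldn2 was 0.863, 0.787 and 0.157. Cldn7 stood at -1.57 ± 1.10 (SE) with TMM over all genes, at -0.65 ± 0.24 with TMM over genes above the background and at 0.49 ± 0.23 with library sizes alone, with edgeR adjusted p of 0.863, 0.489 and 0.299. Leaving out Ehmt2 +/+ replicate 2 leaves the deep section alone against both Ehmt2 fl/fl sections, so depth and genotype cannot be told apart in that fit. The median member then had a log2 fold change of -1.25, against 0.50 for all genes tested.

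**Figure D3:**
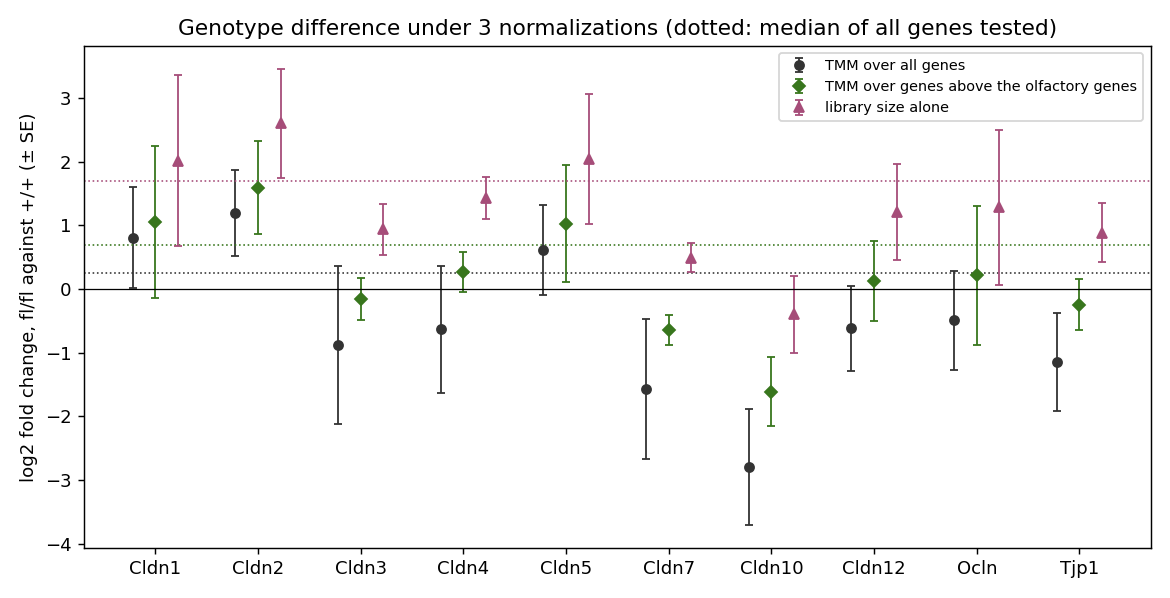
Log2 fold change of each member, Ehmt2 fl/fl against Ehmt2 +/+, with its SE, under 3 scalings in edgeR; dotted lines are the medians of all genes tested under the same scaling (0.25, 0.69 and 1.69). Cldn1, Cldn2 and Cldn5 lie above the median of their scaling, and the other 7 members below it. The scalings share the same counts and move all genes nearly alike, so they do not test this separately.

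Other genes of the junction were taken from a list of 45, of which 42 were among the features (further claudins, ZO-1 relatives, cingulins, junctional adhesion molecules, polarity proteins and the adherens junction). In the edgeR fit 0 of 42 passed, and the list's median log2 fold change was -0.54, against 0.25 over all genes. An unadjusted p under 0.05 was reached by 4 (Tjp3, Cxadr, Crb3 and Prkci), beside 1059 of the 20053 genes tested. Prkci was near the background: it stood at 2.29 CPM in Ehmt2 +/+ replicate 2 and 5.67 CPM in Ehmt2 fl/fl replicate 2. Both values lay below the olfactory medians of those sections, 4.97 and 12.6 CPM. Of the 42, 17 had a positive log2 fold change, and 13 exceeded every olfactory receptor gene in all 4 sections. The 10 with the highest mean CPM were Epcam, Ctnnb1, F11r, Ybx3, Ctnna1, Cdh1, Lsr, Patj, Tjp3 and Magi3. Cdh1, the E-cadherin of the adherens junction, stood at 85.0 and 82.2 CPM in Ehmt2 +/+ and at 122 and 87.8 CPM in Ehmt2 fl/fl, and outside digestive enzymes at 244 and 180 against 158 and 113 CPM. F11r, a junctional adhesion molecule, stood at 125 and 103 CPM in Ehmt2 +/+ and at 160 and 130 CPM in Ehmt2 fl/fl. Counted outside digestive enzymes, F11r stood at 358 and 227 against 207 and 166 CPM, lower in both Ehmt2 fl/fl sections like Cdh1 and Cldn7. On that scale 8 of the 42 were lower in both Ehmt2 fl/fl sections, 10 were higher in both and 24 overlapped, beside 6.84% lower and 45.7% higher over all genes.

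Cldn3 was found in many spots and most other members in few. A UMI of Cldn3 lay in 79.5% of spots of Ehmt2 +/+ replicate 1 (95% Clopper-Pearson interval 78.4% to 80.5%), in 43.1% of replicate 2 (42.0% to 44.2%), and in 60.8% (59.6% to 62.0%) and 53.0% (51.8% to 54.2%) of the Ehmt2 fl/fl sections. Intervals cover counting error only, and these shares follow depth. The median olfactory receptor gene was found in 0.179% and 0.483% of the Ehmt2 +/+ spots and in 0.833% and 1.52% of the Ehmt2 fl/fl spots. Thinned to 500 UMIs per spot, Cldn3 was expected in 17.0% and 26.4% of spots in Ehmt2 +/+ and in 39.5% and 29.6% in Ehmt2 fl/fl. Cldn4 was then expected in 3.34% and 3.02% of spots in Ehmt2 +/+ and in 9.62% and 5.38% in Ehmt2 fl/fl. For Cldn7 the thinned shares were 7.36% and 7.70% in Ehmt2 +/+ and 9.93% and 8.96% in Ehmt2 fl/fl. The thinned median olfactory gene reached at most 0.663% of spots. As with CPM, 9 of 10 members had a higher thinned share in both Ehmt2 fl/fl sections, as did 90.0% of the 20222 genes. Thinning to 500 UMIs outside digestive enzymes left 3 (Cldn2, Cldn12 and Ocln), beside 46.8% of 20190 genes.

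Pairs of members were seen in the same spot about as often as the product of their shares gives. At 500 UMIs per spot, 5 of the 45 pairs had at least 5 joint spots expected under independence in every section. Cldn3 and Cldn4 were seen together 1.08 and 1.08 times as often as independence gives in the Ehmt2 +/+ sections and 1.11 and 1.11 times in the Ehmt2 fl/fl sections. Cldn3 and Cldn7 had ratios of 1.07 and 0.992 in Ehmt2 +/+ and 1.12 and 1.11 in Ehmt2 fl/fl. These ratios are descriptions, since spots of 1 section are not replicates.

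Where in the tissue the members lay was read from marker-rich spots, set against all other spots of the same section. These were the 10% of spots of a section with the highest share of a cell type's marker genes, each with a UMI of the list. Where fewer spots had such a UMI, the set fell short of 10% and held all of them, mostly in Ehmt2 +/+. Fat-rich spots, for example, numbered 164 and 430 in Ehmt2 +/+ and 648 and 646 in Ehmt2 fl/fl. Such sets are unlike between the genotypes. No member is in a marker list. In spots rich in digestive enzymes (acinar-rich), Cldn4 had 0.678 and 0.766 times the CPM of the other spots in Ehmt2 +/+, but 1.44 and 1.19 times in Ehmt2 fl/fl. Cldn7 had ratios of 0.743 and 0.734 in Ehmt2 +/+ and of 1.03 and 1.29 in Ehmt2 fl/fl. Cldn3 had ratios of 0.704 and 0.730 in Ehmt2 +/+ and of 0.944 and 1.16 in Ehmt2 fl/fl. For all 3 both Ehmt2 fl/fl sections lay above both Ehmt2 +/+ sections (exact permutation p = 0.333), with all UMIs or with UMIs outside digestive enzymes as the denominator. Of 5805 genes with at least 100 UMIs in every section, 14.8% had this order with all UMIs and 26.8% outside digestive enzymes. Cldn1 had it on both scales and Tjp1 only outside digestive enzymes, while Cldn2, Cldn10 and Cldn12 overlapped on both. Ocln and Cldn5 were lower in both Ehmt2 fl/fl sections on both scales, as were 24.2% and 13.5% of the 5805 genes. With all UMIs the mean ratio of Ocln was 0.946 in Ehmt2 +/+ and 0.675 in Ehmt2 fl/fl. The median gene had ratios of 0.815 and 0.703 in Ehmt2 +/+ and of 0.707 and 0.710 in Ehmt2 fl/fl. The spots themselves differed: acinar-rich spots held 69.8% and 65.3% digestive enzyme UMIs in Ehmt2 +/+, against 64.5% and 52.8% in the other spots, and 42.3% and 41.9% in Ehmt2 fl/fl, against 20.1% and 18.5%. The part of that difference in the ratios was not tested.

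Fibroblast-rich spots had the opposite order for Cldn3, Cldn4 and Cldn7, and macrophage-rich spots had it for Cldn3 and Cldn4. In fibroblast-rich spots Cldn3 had 1.23 and 1.04 times the CPM of other spots in Ehmt2 +/+ and 0.819 and 0.747 times in Ehmt2 fl/fl. Cldn4 there had ratios of 1.17 and 1.39 in Ehmt2 +/+ and of 0.718 and 0.682 in Ehmt2 fl/fl, and Cldn7 of 1.10 and 1.10 against 0.792 and 0.682. The median gene in the same spots had ratios of 1.27 and 1.31 in Ehmt2 +/+ and of 1.14 and 1.16 in Ehmt2 fl/fl. In Ehmt2 fl/fl the 3 epithelial claudins lay well below it. In Ehmt2 +/+ Cldn3 and Cldn7 also lay below it in both sections, and Cldn4 did so in replicate 1 but not in replicate 2. In macrophage-rich spots Cldn3 had ratios of 1.15 and 1.04 in Ehmt2 +/+ and of 0.779 and 0.679 in Ehmt2 fl/fl. Cldn4 had 1.05 and 1.23 against 0.786 and 0.753, and Cldn7 was above 1 in 1 section. The median gene had 1.13 and 1.12 against 1.11 and 1.11. Among genes with at least 20 UMIs in the marker-rich spots of every section, some were above 1 in both Ehmt2 +/+ sections and below 1 in both Ehmt2 fl/fl sections. Their share was 5.56% for the fibroblast list and 7.69% for the macrophage list. In fat-rich spots Cldn7 was below 1 in all 4 sections, at 0.887 and 0.915 in Ehmt2 +/+ and at 0.856 and 0.581 in Ehmt2 fl/fl.

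In spots rich in duct markers Cldn2, Cldn7, Ocln and Tjp1 had ratios above 1 in all 4 sections, with the top 10% of spots and all UMIs as the denominator. With the top 5% of spots this held in 4 sections for Cldn2, in 3 for Tjp1, in 2 for Cldn7 and in 1 for Ocln. Cldn2 had duct ratios of 1.55 and 1.06 in Ehmt2 +/+, from 7 UMIs each, and of 1.88 and 1.97 in Ehmt2 fl/fl, from 44 and 47 UMIs. Cldn2 was also above 1 in all 4 sections in spots rich in fibroblast, smooth muscle or intestinal epithelium markers, from as few as 5 UMIs. It exceeded the median gene in 4 sections for the last 2 of these lists, against 3 for duct and fibroblast. The intestinal epithelium list was itself low, with its 7 genes summing to 5.39 and 54.2 CPM in Ehmt2 +/+ and 95.4 and 141 CPM in Ehmt2 fl/fl. The median single olfactory receptor gene stood at 0.251, 4.97, 8.13 and 12.6 CPM in the same sections. Tjp1 was above 1 in all 4 sections in smooth muscle-rich spots too. For Cldn7 and Ocln only the duct list gave this. Outside digestive enzymes the duct ratios of Cldn2 and Cldn7 in Ehmt2 +/+ replicate 2 were 0.937 and 0.948, while the other 3 sections stayed above 1. Cldn7 had duct ratios of 1.16, 1.07, 1.25 and 1.08 in the 4 sections, the Ehmt2 +/+ sections first, against 1.07 to 1.16 for the median gene. Tjp1 had duct ratios of 1.09, 1.17, 1.36 and 1.07 in the same order, and Ocln, from 8 to 14 UMIs in the duct-rich spots of a section, of 1.17, 1.63, 1.05 and 1.24. Outside digestive enzymes both genes stayed above 1 in all 4 sections, while thinned to 500 UMIs Ocln did so in 3. With all UMIs, the summed olfactory receptor genes had duct ratios of 1.39 and 1.29 in Ehmt2 +/+ and of 1.004 and 1.03 in Ehmt2 fl/fl. In Ehmt2 +/+ only Cldn2 in replicate 1 and Ocln in replicate 2 exceeded that background ratio. In both Ehmt2 fl/fl sections Cldn2, Cldn7, Ocln and Tjp1 all did. Cldn10 lay below 1 in islet-rich spots of every section, at 0.712 and 0.859 in Ehmt2 +/+ and at 0.184 and 0.725 in Ehmt2 fl/fl, the 0.184 resting on 2 UMIs.

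Cldn5 had ratios above 1 in all 4 sections in fibroblast-rich and smooth muscle-rich spots, and below 1 in all 4 in acinar-rich spots. In endothelium-rich spots it had 8.14 and 2.49 times the CPM of other spots in Ehmt2 +/+, and 0.807 and 1.36 times in Ehmt2 fl/fl, where the median gene had 1.06 and 1.08. The highest of these came from the section with the lowest background, where 26 of 78 Cldn5 UMIs lay in endothelium-rich spots. Cldn1 (1.20 to 5.70, from as few as 7 UMIs) and Cldn12 (1.10 to 2.07, from as few as 15) were above 1 there in all 4 sections. Both also exceeded the median gene in all 4, which Cldn5 did in 3. The summed olfactory receptor genes were above 1 there too, at 1.71 and 1.52 in Ehmt2 +/+ and at 1.06 and 1.14 in Ehmt2 fl/fl. In fibroblast-rich spots Cldn5 had ratios of 10.95 and 2.36 in Ehmt2 +/+ and of 1.94 and 1.63 in Ehmt2 fl/fl. In smooth muscle-rich spots its ratios were 5.35 and 2.40 in Ehmt2 +/+ and 1.68 and 1.74 in Ehmt2 fl/fl. In duct-rich spots Cldn5 had ratios of 1.58 and 1.495 in Ehmt2 +/+ and of 1.36 and 0.758 in Ehmt2 fl/fl. In acinar-rich spots Cldn5 was lowest of all members in each section, between 0.332 and 0.468 times the CPM of other spots, below the median gene at 0.703 to 0.815. Summed over the olfactory receptor genes, the acinar ratio was 0.766 and 0.419 in Ehmt2 +/+ and 0.479 and 0.446 in Ehmt2 fl/fl.

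**Figure D4:**
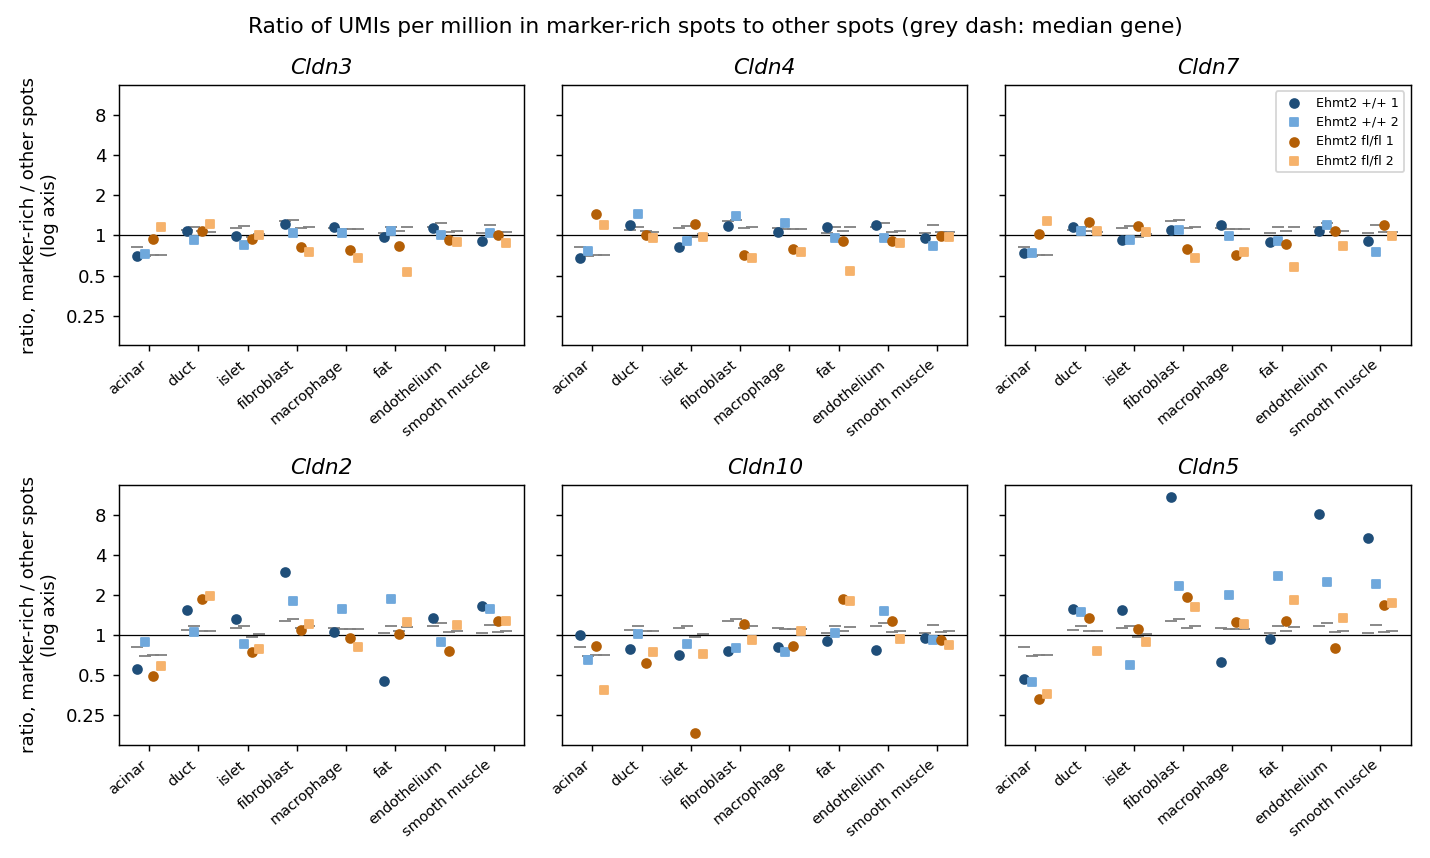
Ratio of CPM in marker-rich spots to CPM in the other spots of the same section (log axis; 1 is no difference) for 6 members and 8 marker lists, with a point per section and a grey dash for the median of 5834 genes. Cldn3, Cldn4 and Cldn7 lie higher in acinar-rich and lower in fibroblast-rich spots of the Ehmt2 fl/fl sections than of the Ehmt2 +/+ sections, and Cldn5 reaches its highest ratios in fibroblast-rich and endothelium-rich spots of Ehmt2 +/+ replicate 1.

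The genes most like each member were ranked by Pearson correlation of log2 ratios over 11 marker lists and 4 sections (44 values that share libraries and spots), among 5776 genes with at least 100 UMIs in every section and in no marker list. Epcam was the gene most like Cldn3 (r = 0.91), followed by Lonp1 (0.84) and Tpm1 (0.81). Epcam was also the most like Cldn7 (r = 0.79), followed by Cldn3 (0.79) and Clu (0.77). For Cldn4 the leading genes were Shisa4 (r = 0.77), Insig1 (0.76) and Dhx34 (0.74). Cldn12 and Tjp1, whose counts were low, had no gene above r = 0.68. Hilpda, Scamp3 and Nifk led for Cldn12, and Cbr3, Rngtt and Snx1 for Tjp1.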

How the data were processed

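The authors made the files with Space Ranger 2.0.1 (mm10 reference, mouse Visium probe set 1.0) without normalization, and the deposited matrices hold whole-number UMI counts per feature and spot. Features marked as deprecated were left out, leaving 32285. Spots with at least 500 UMIs were summed per section, each section being 1 replicate. Replicate numbers follow the order of the samples and pair no mice. The p-values take these sections as the replicates, and the exact permutation p cannot fall below 0.333 whatever the spread. The alignment files the authors deposited gave slide and capture area. Of the listed spot barcodes, which encode position on the slide, 13898 occur in all 4 sections.

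The test on counts was edgeR 4.0.16 under R 4.3.3, by quasi-likelihood with TMM, a minimum count of 10 and an adjusted p threshold of 0.05. The SE of a log2 fold change was its size over the square root of F. Alternatives included DESeq2 1.42.0, other denominators, spots and thinning depths. Python 3.11.15, numpy 2.4.6, pandas 2.3.3 and scipy 1.17.1 served all else, and scripts were tested on simulated data. Thinned shares are hypergeometric expectations. Ratios over all genes used a prior count of 0.5. Named genes were the 10 members, the 10 listed junction genes with the highest mean CPM or called, the 3 genes most like each member with at least 100 UMIs per section, Ehmt2 and sex-linked genes. Members and lists were chosen with earlier results of these data known.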

Additional observations from a re-analysis of the deposited data

Results flagged for a closer look

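Only Cldn3, Cldn4 and Cldn7 had enough UMIs for this look. Of 32 pairs of a member and a marker list with at least 20 UMIs in the marker-rich spots of every section, 9 had ratios to the other spots on one side of 1 in both Ehmt2 +/+ sections and on the other side in both Ehmt2 fl/fl sections. Over all genes with at least 20 UMIs in the marker-rich spots of every section, the list's own markers left out, the share with either such order was 6.65% for acinar, 17.6% for islet, 6.11% for fibroblast, 10.4% for macrophage and 13.1% for mesothelium lists. Apart from the acinar ratios, for which an exact permutation test gave p = 0.333, these differences were not tested. In acinar-rich spots they were Cldn4 (0.678 and 0.766 in Ehmt2 +/+, 1.44 and 1.19 in Ehmt2 fl/fl) and Cldn7 (0.743 and 0.734, then 1.03 and 1.29). In islet-rich spots it was Cldn7 (0.929 and 0.926, then 1.18 and 1.05). In fibroblast-rich spots they were Cldn3 (1.23 and 1.04, then 0.819 and 0.747), Cldn4 (1.17 and 1.39, then 0.718 and 0.682) and Cldn7 (1.10 and 1.10, then 0.792 and 0.682). The median gene in fibroblast-rich spots was itself above 1 (1.27 and 1.31, then 1.14 and 1.16). In macrophage-rich spots they were Cldn3 (1.15 and 1.04, then 0.779 and 0.679) and Cldn4 (1.05 and 1.23, then 0.786 and 0.753). In mesothelium-rich spots it was Cldn3 (1.08 and 1.03, then 0.856 and 0.904).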

How the results depend on the processing

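The limits are 2 sections per genotype, a background that differs between sections and members near it. Against 22 genes called, DESeq2 called 470 (of 1781 with an adjusted p), 464 of them lower in Ehmt2 fl/fl. Library sizes alone called 400, TMM over genes above the background 143 and slide as a block 13. Most of the 42 listed junction genes got no adjusted p from DESeq2. It called 5 of them (Tjp3, F11r, Crb3, Ybx3 and Cdh1), all lower in Ehmt2 fl/fl like nearly all its calls. Library sizes alone called 1 listed gene (Cgn). No alternative with all 4 sections called a member. Leaving out each section in turn gave 0 to 16653 genes, 0 to 10 members and 0 to 36 listed genes, the highest without Ehmt2 +/+ replicate 2; without Ehmt2 +/+ replicate 1 there were 379 genes and 0 members, and without Ehmt2 fl/fl replicates 1 and 2 there were 2 and 0 genes. Those left-out fits assume that the lone section varies like the other genotype. The labels give no replicate numbers, so none pairs the mice, and the shared slide, read from the alignment files, was the block used.

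With library sizes alone the log2 fold changes of Cldn3, Cldn4, Cldn7, Cldn12, Ocln and Tjp1 turned positive (0.93, 1.42, 0.49, 1.20, 1.28 and 0.88), with TMM over genes above the background those of Cldn4, Cldn12 and Ocln (0.26, 0.12 and 0.21), and that of Cldn4 ranged from -1.42 to 0.51 over left-out sections. Of 9 members with a higher CPM in both Ehmt2 fl/fl sections, 2 remained outside digestive enzymes (4 not overlapping in either direction) and 2 per Epcam (5 not overlapping). Over all genes 45.7% were higher and 6.84% lower outside enzymes, and 29.4% higher and 7.90% lower per Epcam. Log2 ratios of means turned negative for Cldn7 and Tjp1 (-0.48 and -0.075) outside enzymes. Per Epcam they did so for Cldn3, Cldn7 and Tjp1 (-0.19, -0.72 and -0.29). Of 9 members by thinned share, 3 remained unthinned (3 not overlapping), beside 51.7% of 20222 genes higher in both Ehmt2 fl/fl sections and 0.752% lower in both. Outside digestive enzymes 3 remained (5 not overlapping), beside 46.8% of 20190 genes higher and 6.83% lower. Unthinned log2 ratios of Cldn3, Cldn4, Cldn7, Cldn12, Ocln and Tjp1 were -0.11, -0.23, -0.81, -0.22, -0.052 and -0.78. Those outside enzymes of Cldn3, Cldn7 and Tjp1 were -0.072, -0.43 and -0.071. Leaving out a section gave 9 to 10 members on both scales, but fewer sections make an overlap rarer. The share over all genes was not counted with a section left out. With none left out, 91.4% of the 20222 genes were higher in both Ehmt2 fl/fl sections by CPM and 90.0% by thinned share. The cause of the changes across settings was not tested.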
